A study of Homo sapiens with 6 samples.

Results

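TRIM24 occupancy in castration-resistant LNCaP-abl cells was set against its occupancy in androgen-dependent LNCaP cells, both without added androgen. The members are the chromatin immunoprecipitation sequencing (ChIP-seq) peaks of those 2 conditions, chosen by their labels: 20621 peaks in LNCaP-abl and 9744 in LNCaP under vehicle. Peaks of the lists that overlapped by at least 1 bp were joined, which gave 21709 regions, of 22226 when all 3 TRIM24 lists of the study were joined. LNCaP, a prostate cancer line from a lymph node metastasis, was grown for 72 h in serum stripped of steroids and then received ethanol for 4 h. LNCaP-abl, its castration-resistant derivative, was kept in stripped serum throughout and was likewise given ethanol. One more list, of 7105 peaks, came from starved LNCaP cells treated for 4 h with the androgen dihydrotestosterone (DHT) at 10 nM, and serves below as a second LNCaP library. All 3 immunoprecipitations used the same TRIM24 antibody. With a single library (n = 1) per condition, differences are described and not tested. The 2 lines differ in derivation as well as in culture, and these cannot be told apart here.

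TRIM24 binds chromatin through its paired PHD finger and bromodomain, which recognise a histone H3 tail that lacks methylation at one lysine and carries acetylation at another. It is a cofactor of nuclear receptors, among them the androgen receptor, the driver of most prostate cancers. Castration-resistant cells grow with little androgen while usually still depending on that receptor. Where a chromatin cofactor sits in such cells is therefore compared with its sites in cells that still need the hormone.

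Each peak in the deposited lists carries a −log10 significance score from the MACS2 caller (of p or of q, which the lists leave unsaid); it grows with sequencing depth, which the lists do not give. It had a median of 26.1 in LNCaP-abl and 6.46 in LNCaP vehicle, so raw scores are not comparable between the lists. Scores were therefore turned into ranks. The list percentile is the rank within all regions of a list (100 = highest score). The shared percentile is the rank within the regions common to both lists, which number the same on either side, and the rank change is the LNCaP-abl shared percentile minus the vehicle one, in points. Lists of different length give percentiles that cannot be subtracted, so list percentiles are only set side by side. Positions are in hg19. Regions are named by position alone, because no hg19 gene annotation or sequence was used here.

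Most TRIM24 regions of LNCaP vehicle had a counterpart in LNCaP-abl, and the strongest regions of either line were nearly all common to both. The lists shared 7378 regions, which is 86.7% of 8509 vehicle regions (exact 95% interval 86.0 to 87.4, counting error only) and 35.9% of 20578 LNCaP-abl regions (35.2 to 36.5). Another 13200 regions were in LNCaP-abl alone and 1131 in LNCaP vehicle alone. In the highest score decile, 96.8% of vehicle regions (95.4 to 97.9) and 91.7% of LNCaP-abl regions (90.5 to 92.9) had a partner. In the lowest decile the shares were 68.3% (65.1 to 71.5) and 4.87% (3.98 to 5.90). The LNCaP-abl list thus lost its partners steadily toward low scores, whereas the vehicle list kept most of them in every decile.

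**Figure D1:**
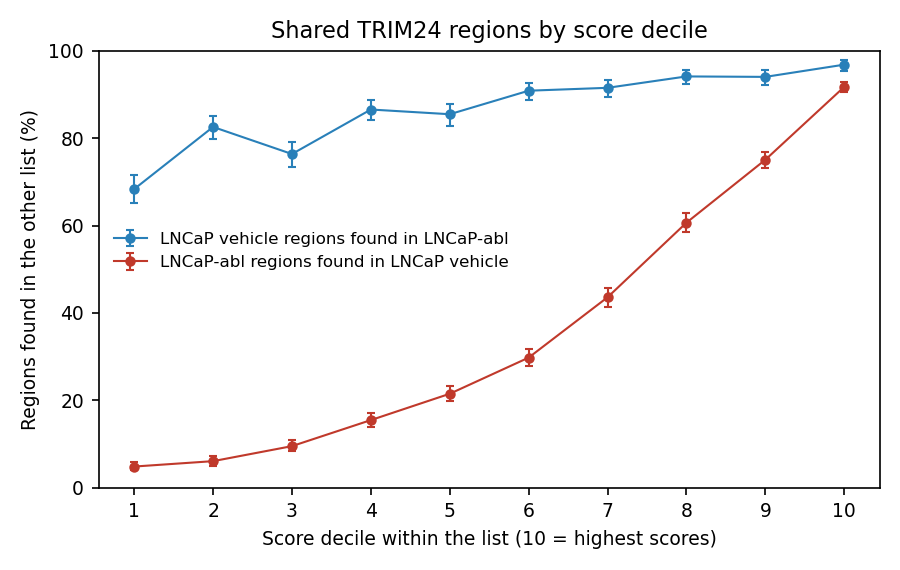
Share of TRIM24 regions with a partner in the other list (y axis, %) by score decile within the list (x axis, 10 = highest scores); points are shares and bars exact 95% binomial intervals, with 1 library per line. The vehicle curve stays between 68.3% and 96.8%, and the LNCaP-abl curve climbs from 4.87% to 91.7%.

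Regions held by LNCaP-abl alone sat low in its list. Their median list percentile was 34.9, against 78.2 for the LNCaP-abl regions shared with vehicle. Only 798 of the 13200 (6.05%, 5.64 to 6.47) scored above the median of shared LNCaP-abl regions, and 20 reached the scores of the top decile of shared regions. Of these 20, 9 had a DHT peak. Vehicle-only regions had a median list percentile of 25.7 and a median width of 210 bp, close to the 200 bp that is the smallest peak width in the list. Of the vehicle-only regions, 22.1% (19.7 to 24.6) had a DHT peak, against 59.1% (57.9 to 60.2) of the shared ones and 9.70% (9.20 to 10.2) of the LNCaP-abl-only ones.

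Among the shared regions the order of occupancy was partly kept. The Spearman correlation of the scores was 0.44 over 7378 regions, which share their 2 libraries; it describes these lists and carries no test. The lowest vehicle decile had a median shared percentile of 31.4 in LNCaP-abl (quartiles 14.0 and 50.9). The fifth decile had 44.2 (22.8 and 64.3), and the highest 91.3 (67.9 and 97.2). The first pair of quartile ranges overlapped, and that of the highest decile lay above both. Of its 738 regions, 391 (53.0%, 49.3 to 56.6) were also in the top decile of LNCaP-abl.

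The 5 regions with the highest mean percentile were at the head of both lists. The first, chr5:177026641-177027570, ranked 1 under vehicle and 2 in LNCaP-abl, and chr1:211431984-211433400 ranked 3 in both. On chromosome 17, chr17:80023251-80024137 ranked 6 under vehicle and 1 in LNCaP-abl. The fourth, chr6:170491956-170492909, ranked 2 and 5, and the last, chr11:47429489-47430450, ranked 10 and 4. All 5 also had a DHT peak, with list percentiles from 99.2 to 99.98. Their rank changes between vehicle and LNCaP-abl lay between -0.041 and 0.081 points, which follows from choosing them by a high mean percentile in both lists.

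**Figure D2:**
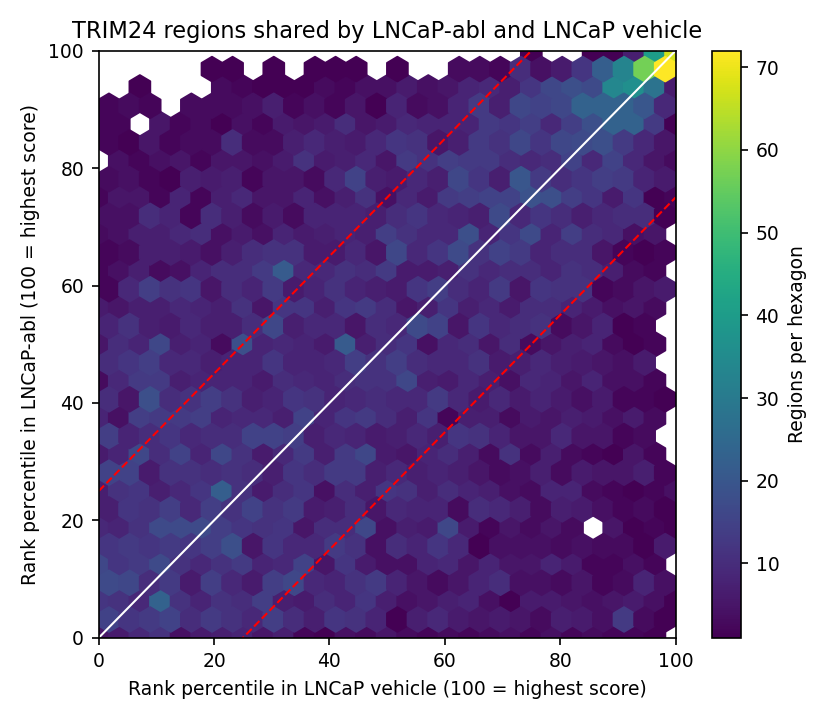
Shared percentile of 7378 TRIM24 regions in LNCaP vehicle (x axis) and LNCaP-abl (y axis), 100 being the highest score; colour gives the regions per hexagon, the white line equal ranks and the red dashed lines a change of 25 points. Regions gather at the upper right corner, where 391 are in the top decile of both lists, and spread over the rest of the square.

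A change of at least 25 points was counted as a move. By this rule 2843 shared regions moved (percent of shared regions 38.5). Of these, 1437 moved up in LNCaP-abl (percent of shared regions 19.5) and 1406 moved down (19.1), while 2393 (32.4%, 31.4 to 33.5) changed by under 10 points. The regions just inside the rule had changes of 25.01 and -25.01 points, and those just outside 24.97 and -24.99. The upward regions had a median score of 5.17 in the vehicle list and 103 in the LNCaP-abl list, and the downward ones 9.59 and 33.0. Over all shared regions the medians were 7.26 and 76.0, so a higher raw score in LNCaP-abl was usual and is not itself a rise. In list percentiles, the upward regions were at a median of 25.5 under vehicle and 86.9 in LNCaP-abl. The downward regions were at 72.4 and 55.2, so most of them were still mid-list sites in LNCaP-abl.

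Moves of this size were almost as frequent between the 2 LNCaP libraries. Over the 4359 regions in all 3 lists, ranked among themselves, 38.7% differed by at least 25 points between LNCaP-abl and vehicle (20.1% up, 18.6% down). Between DHT and vehicle it was 36.1% (17.9% up, 18.1% down). The median absolute difference was 18.3 points for LNCaP-abl and 16.7 for DHT, each against the same vehicle library. Moves of 25 points were thus about as common within LNCaP, where the libraries differed in DHT treatment, as between the lines.

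Very large downward moves were where the comparisons parted. At 75 points or more, a size chosen after the values were seen, LNCaP-abl had 88 regions lower than vehicle (2.02%) and 21 higher (0.482%) among the regions in all 3 lists. DHT had 9 lower (0.206%) and 10 higher (0.229%) than vehicle. When scores were divided by peak width before ranking, LNCaP-abl had 71 lower and 41 higher, and DHT 45 lower and 54 higher, so the excess was smaller on that scale. A rank change needs a peak in each list, and the lists held 20621 (LNCaP-abl), 9744 (vehicle) and 7105 (DHT) peaks. A site weak in a shorter list may go uncalled there. With the LNCaP-abl list cut to the vehicle length, 63 shared regions were lower and 24 higher, against 106 and 33 with full lists. The DHT comparison was not repeated with equal lists, so the part of list length in it was not tested.

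**Figure D3:**
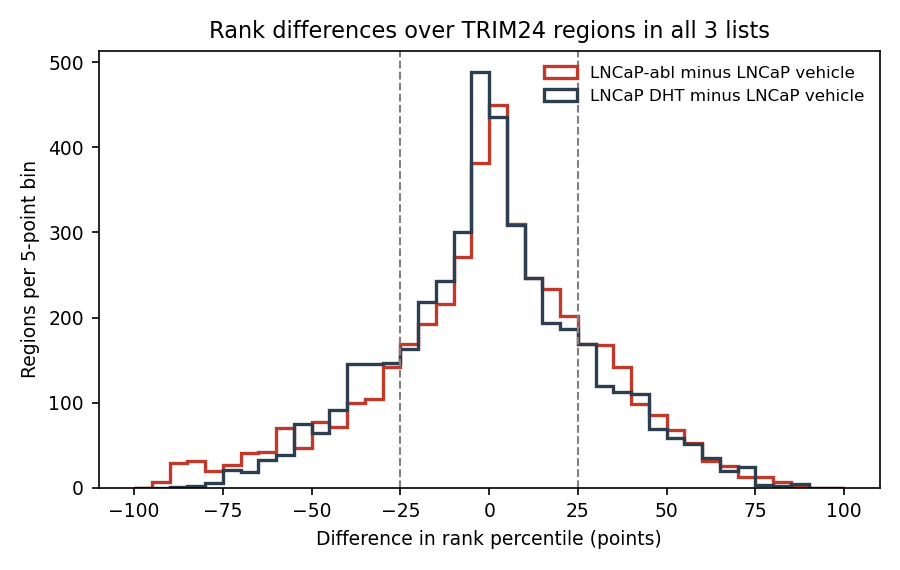
Differences in rank percentile (x axis, points, 5-point bins) over the 4359 TRIM24 regions in all 3 lists (y axis, regions per bin) for LNCaP-abl minus vehicle and DHT minus vehicle; dashed lines mark 25 points either way. The curves run close together except at the far left, where LNCaP-abl has 88 regions lower by at least 75 points and DHT has 9.

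Over all shared regions, 106 (1.44%) were lower in LNCaP-abl by at least 75 points and 33 (0.447%) were higher. Most of the 106 regions were strong in both LNCaP lists. Their median list percentile was 92.9 under vehicle and 29.5 in LNCaP-abl. For the 97 with a DHT peak it was 92.9 under DHT (quartiles 80.9 and 97.5). Of those 97, 79 were at or above list percentile 75 under DHT and 6 were below 50. The rest of the 106 had no DHT peak. The DHT list took no part in choosing these regions, but high vehicle ranks did. DHT and vehicle scores had a Spearman correlation of 0.53 over the 4359 regions in all lists. DHT ranks thus tended to be high where vehicle ranks were high. Whether they were higher here than at other shared regions of equal vehicle rank was not tested. Peaks of the 106 regions were also narrow in LNCaP-abl. The LNCaP-abl peak was the narrower one in 80 of the 106 (75.5%, 66.2 to 83.3), against 4.54% (4.08 to 5.04) of all shared regions. Width and score come from the same peak calls and moved together within each list (Spearman correlation 0.57 under vehicle and 0.52 in LNCaP-abl, over 7378 regions).

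These 106 regions were unevenly spread. Chromosome 2 held 16 among its 502 shared regions, chromosome 10 held 15 among 313 and chromosome 19 held 11 among 458. Chromosome 1, with the most shared regions (824), held 9. Over all shared regions the share was 1.44%. Of the 106, 31 lay in 1 of 45 megabase windows with at least 5 vehicle peaks and more vehicle than LNCaP-abl peaks, several of them beside centromeres. These windows held a small part of all shared regions: leaving them out kept 7204 of 7378. All 31 regions had a DHT peak, at a median DHT list percentile of 95.2. The other 75 had medians of 91.7 under vehicle, 90.5 under DHT (for the 66 with a DHT peak) and 29.0 in LNCaP-abl. The vehicle and LNCaP-abl values are fixed by the choice of these regions, and the windows were picked after the data were seen. The DHT values were not set against those of other shared regions of equal vehicle rank.

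The 33 regions with the opposite move were less alike in the LNCaP lists. Their median list percentile was 7.04 under vehicle, 36.2 under DHT and 95.2 in LNCaP-abl, and 26 of them had a DHT peak. Only 4 of the 26 were at or above list percentile 75 under DHT and 16 were below 50. None of the 33 lay in the crowded windows. Those windows held few shared regions and were defined by an excess of vehicle peaks, so no contrast is drawn from this. Because low vehicle ranks were part of the choice, the higher DHT ranks are a description only.

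By the rule for naming, the downward moves described singly are the 10 largest among regions in the top decile of vehicle. The largest was chr2:92281138-92281561, beside the centromere of chromosome 2, which scored 24.6 under vehicle, 25.9 under DHT and 4.83 in LNCaP-abl. Its list rank was 373 under vehicle and 19611 in LNCaP-abl. A neighbour at chr2:92296288-92297323 scored 22.7, 16.3 and 6.01 in the same order. Both LNCaP lists thus had a high-scoring peak at these neighbours and LNCaP-abl a low-scoring one. Repeat content, copy number and read mapping beside centromeres were not examined, and the inputs were not used. Whether peaks in such sequence reflect TRIM24 occupancy was therefore not tested.

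The second-largest downward move, chr10:42387126-42387588, also adjoins a centromere and scored 27.3 under vehicle, 21.6 under DHT and 6.61 in LNCaP-abl. On chromosome 19, chr19:27735769-27736957 scored 30.6, 44.7 and 10.6. On chromosome 4, chr4:49151514-49151961 scored 25.4, 24.1 and 9.68. These 3 lie in pericentromeric sequence, and in each the DHT value was near or above the vehicle value. On chromosome 8, chr8:46852302-46852666 scored 20.3 under vehicle, 17.4 under DHT and 5.81 in LNCaP-abl, and it too lies close to the centromere.

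By position, the remaining downward regions lie away from centromeres. Their repeat content was not examined. The strongest of the 10 in LNCaP was chr8:142726194-142726602, with scores of 65.8 under vehicle, 76.5 under DHT and 13.7 in LNCaP-abl. It ranked 58 in the vehicle list and 13288 in the LNCaP-abl list. On chromosome 4, chr4:68265206-68265783 scored 30.3, 21.3 and 8.06. On chromosome 7, chr7:19156622-19157257 scored 19.2, 17.7 and 5.995. Each of these had a vehicle peak wider than its LNCaP-abl peak, at 405 against 244 bp, 578 against 227 bp and 636 against 238 bp. The last, chr16:88798158-88799002, differed from the others under DHT: it scored 19.2 under vehicle, 6.91 under DHT and 6.401 in LNCaP-abl.

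All 10 upward moves named by the matching rule (the largest among regions in the top decile of LNCaP-abl) had weak vehicle peaks. Low vehicle ranks follow from that choice. Most of these peaks were narrow, but the vehicle width was 360 bp at chr11:46368721-46369568 and 903 bp, over 3 peaks, at chr17:17584356-17586569. The median over all shared regions was 363 bp. Vehicle scores ran from 2.91 to 5.26 and LNCaP-abl scores from 178 to 329. In 5 of the 10 the vehicle peak had the smallest width of 200 bp, and the LNCaP-abl peaks were 749 to 2214 bp wide. The largest move, chr14:74225575-74227311, scored 2.91 under vehicle, 3.38 under DHT and 181 in LNCaP-abl, and ranked 8389 and 674 in the vehicle and LNCaP-abl lists. It was near the bottom of both LNCaP lists, at list percentiles of 1.29 and 4.97.

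Next came chr12:30907308-30908343, which scored 3.86 under vehicle, 6.91 under DHT and 209.9 in LNCaP-abl. Chromosome 2 gave 4 of the 10. Of these, chr2:178077170-178078220 scored 3.66, 8.12 and 189, and chr2:183902274-183903518 scored 3.66, 11.2 and 180.1. The DHT list percentiles of this pair, 63.7 and 80.3, were far above the vehicle percentile of 7.04 that both had.

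The highest LNCaP-abl score among the upward regions was at chr2:219156804-219157552, with 5.26 under vehicle, 11.9 under DHT and 329 in LNCaP-abl, where it ranked 149. The fourth region of that chromosome, chr2:198380410-198381323, scored 4.78, 4.64 and 179. On chromosome 8, chr8:143484012-143485131 scored 4.96, 8.35 and 246. On chromosome 16, chr16:58033910-58035599 scored 4.69, 11.6 and 178.

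Of the upward regions, chr17:17584356-17586569 was the one with several vehicle peaks: 3 vehicle peaks lay under 1 LNCaP-abl peak of 2214 bp. Its scores were 4.81, 6.87 and 180.05. With the scores of its vehicle peaks added up, its change fell from 72.5 to 11.5 points, and with scores per kb of width to 11.03, so this move depends on how the region is scored. The last, chr11:46368721-46369568, scored 4.87 under vehicle and 185 in LNCaP-abl and was the one upward region with no DHT peak. In the other 9, DHT scores ran from 3.38 to 11.9, at or above the vehicle score in 8 of them and just below it at the fourth chromosome 2 region.

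**Figure D4:**
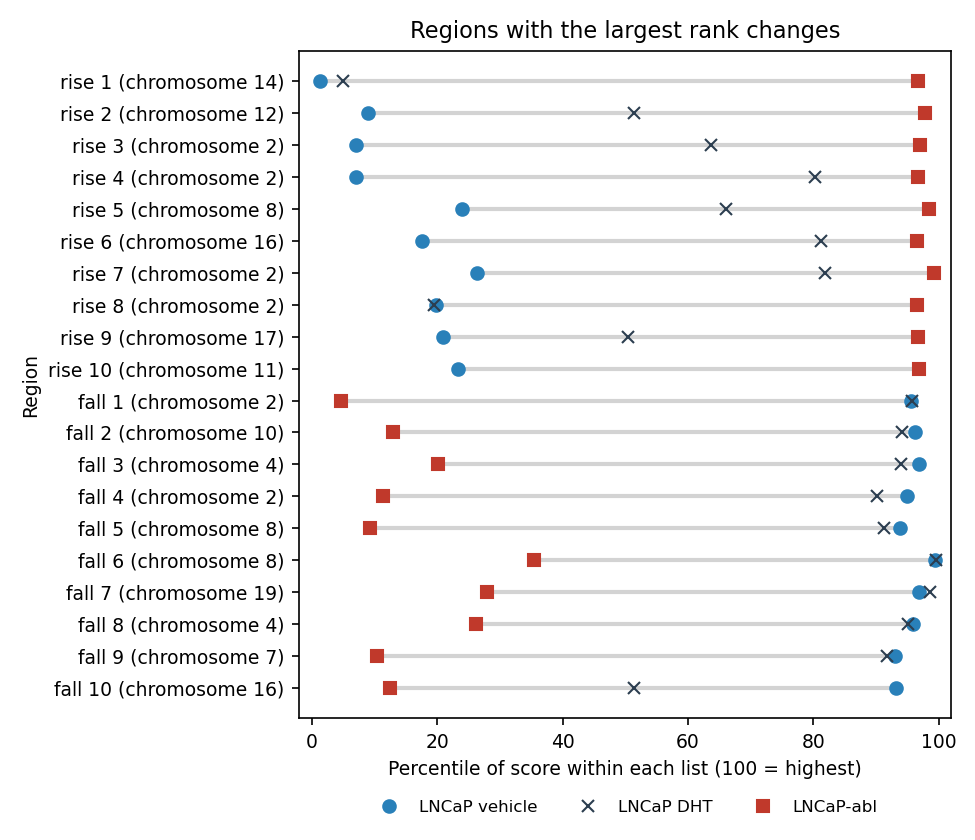
List percentile (x axis, 100 = highest score) in LNCaP vehicle, LNCaP DHT and LNCaP-abl of the 10 largest upward moves (rise) and the 10 largest downward moves (fall), numbered in order of size; rise 10 has no DHT peak. The DHT crosses lie beside the vehicle circles in 9 falls, at 90.1 or above, and are scattered from 4.97 to 81.9 in the rises.

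The exchange between the ends of the ranking was uneven, by an amount that depended on how regions were joined and scored. Of the 738 regions in the top vehicle decile, 41 (5.56%, 4.02 to 7.46) were in the bottom decile of LNCaP-abl. Of the 735 in the top LNCaP-abl decile, 4 (0.544%, 0.148 to 1.39) were in the bottom decile of vehicle. Counting the lower 50% of the other list, the shares were 19.2% (16.5 to 22.3) and 7.35% (5.57 to 9.48). With scores per kb of width, the bottom-decile shares came to 3.66% and 2.71%, which removed most of the difference. With a reciprocal overlap of at least 50% they were 0.392% and 0%. They were 2.64% and 0.331% in lists of equal length, 3.12% and 0.543% with summed scores, and 3.90% and 0.556% without the crowded windows.

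Regions that moved up, moved down or stayed were found under DHT equally often. A DHT peak was present at 59.7% (57.1 to 62.3) of upward, 58.8% (56.2 to 61.4) of downward and 59.0% (57.5 to 60.4) of the other shared regions. Among regions in all 3 lists, the upward ones had median percentiles of 16.3 under vehicle, 38.3 under DHT and 61.2 in LNCaP-abl. The downward ones had 66.6, 59.2 and 14.6. The vehicle and LNCaP-abl values are set by the choice of the classes, and only the DHT value is free, so the order of the 3 is a description.

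Peak width differed between the classes as well. LNCaP-abl peaks were a median of 3.09 times as wide as the vehicle peaks in upward regions, 2.14 times in the unmoved ones and 1.61 times in downward regions. The median LNCaP-abl width was 1042, 927 and 608 bp, and the median vehicle width 306, 395 and 355 bp. Vehicle peaks at the smallest width of 200 bp made up 17.6% (15.7 to 19.7) of upward and 3.77% (2.84 to 4.90) of downward regions. Several vehicle peaks lay in 14.4% (12.6 to 16.3) of upward, 16.2% (15.1 to 17.3) of unmoved and 9.67% (8.18 to 11.3) of downward regions.

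By chromosome, leaving out Y, the median rank change of shared TRIM24 regions was highest on chromosomes 21, 8 and 14. It was lowest on chromosomes 18, 9 and 13. The median rank change on chromosome 8 was 6.61 points (binomial 95% interval of the median 3.47 to 9.88, 314 regions), with 29.0% of its regions moving up and 16.2% down, against 19.5 and 19.1 over all shared regions. On chromosome 21 it was 7.77 points (1.12 to 12.4, 82 regions) and on chromosome 14 it was 5.42 (2.38 to 9.37, 236 regions). On chromosome 18 it was -10.02 points (-16.3 to -2.26, 132 regions), with 12.1% up and 28.8% down. Chromosome 9 was at -4.70 (-7.18 to -1.27) and chromosome 13 at -4.49 (-7.44 to -0.102). The X chromosome had 12.3% up and 28.1% down with a median of -0.71 (-7.96 to 3.86).

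The DHT library set against vehicle gave medians of 1.10 on chromosome 8, -1.09 on chromosome 18, 0.39 on chromosome 9 and -0.011 on chromosome 13, over regions in all 3 lists. LNCaP-abl minus vehicle over the same regions gave 5.67, -9.91, -2.67 and -4.77. On chromosome 14 the DHT median was 5.98, against 8.57 for LNCaP-abl over the same regions. The intervals treat neighbouring regions as independent and were not adjusted for 23 chromosomes. The medians kept their sign on chromosomes 8, 14, 9 and 18 in all 10 other settings tried, and not on chromosomes 13 and 21, where 1 setting each turned it. Their size was less stable. On chromosome 8 the median was only 1.964 (-1.48 to 9.75) under a reciprocal overlap of at least 50%, and 1.959 (-0.976 to 7.75) with scores per kb of width. The interval on chromosome 14 also included 0 with the reciprocal overlap, in lists of equal length and with scores per kb, and those on chromosomes 18 and 9 did so with the reciprocal overlap. On chromosome 21 it included 0 in most settings, such as summed scores (2.73, -2.64 to 11.3) and peaks of 400 bp (7.70, -1.81 to 12.1). On chromosome 13 it did so in several, such as summed scores (-3.87, -9.15 to 0.183). Without the crowded windows the chromosome 18 median was -6.32 (-14.4 to -0.715).

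**Figure D5:**
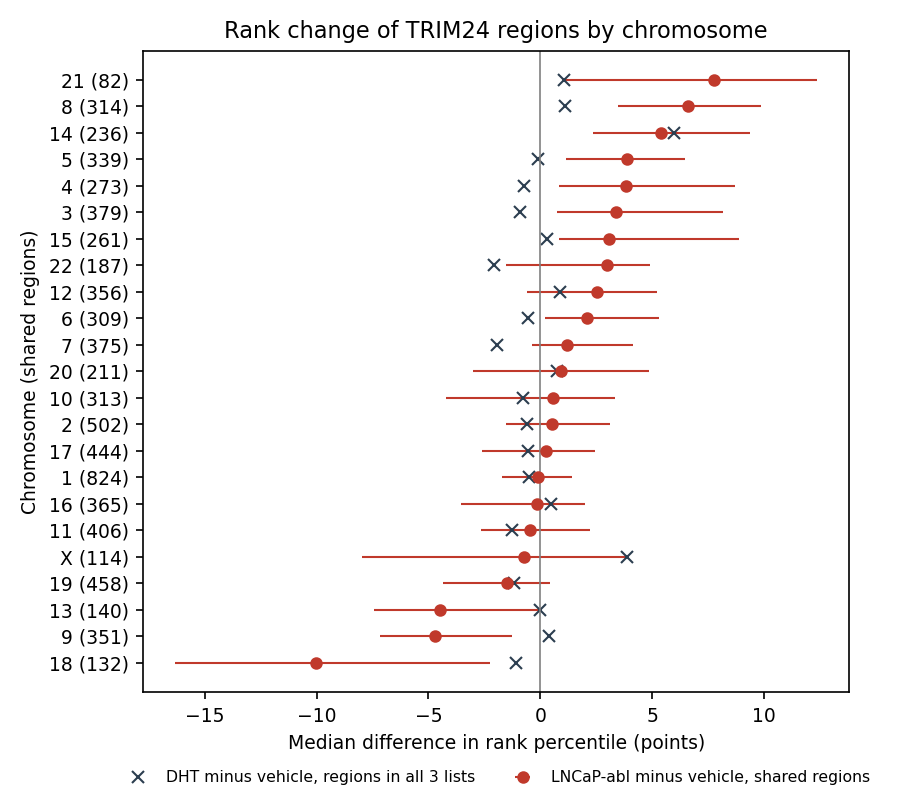
Median rank change of shared TRIM24 regions (x axis, points) by chromosome (y axis, number of shared regions in brackets) for LNCaP-abl minus vehicle, with binomial 95% intervals of the median; crosses are DHT minus vehicle over regions in all 3 lists. Chromosome 18 is lowest at -10.02 and chromosome 21 highest at 7.77; the Y chromosome, with 7 regions, is left out.

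Within chromosomes, 193 windows of 10 Mb held at least 15 shared regions; the median rank change was above 10 points in 22 and below -10 in 15. The highest was chromosome 6 from 10 to 20 Mb, with a median of 26.6 over 23 regions, 12 of which moved up and 1 down; the DHT median there was -3.06. Chromosome 15 from 50 to 60 Mb followed with 18.9 over 24 regions, 10 up and 2 down, and a DHT median of 0.29. The window on chromosome 12 from 20 to 30 Mb, at 18.0, also had a DHT median of 17.5. The lowest windows were chromosome 10 from 40 to 50 Mb, at -62.8 over 31 regions, and chromosome 2 from 130 to 140 Mb, at -33.7 over 22 regions. Their DHT medians were 0.67 and -0.81. All DHT medians of windows cover only regions in all 3 lists, ranked among themselves, which were 24 and 13 in these lowest windows. Rises and falls can cancel in a median, so single regions may still have differed between the LNCaP libraries.

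The rank changes of neighbouring regions were most alike at short range. The Spearman correlation of the rank change between adjacent shared regions was 0.26 for 246 pairs less than 1 kb apart and 0.16 for 489 pairs 1 to 10 kb apart. It was 0.047 for 2515 pairs 10 to 100 kb apart and 0.055 for 3391 pairs 100 to 1000 kb apart. Pairs less than 1 kb apart that both moved went the same way in 48 cases and opposite ways in 17. At 1 to 10 kb it was 55 and 31, at 10 to 100 kb 215 and 170, and at 100 to 1000 kb 251 and 179.

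Runs of at least 4 adjacent shared regions that all moved the same way numbered 20 downward and 10 upward. The longest was downward, with 17 regions at chr10:42360576-42971826, with a median list percentile of 95.01 under vehicle, 95.2 under DHT and 40.7 in LNCaP-abl. A run of 12 regions spanned the centromere of chromosome 2 at chr2:90485161-95787973, with 90.2, 89.0 and 14.6. A run of 8 did so on chromosome 19 at chr19:24184784-27740387, with 96.8, 99.1 and 46.9. A compact run of 7 lay at chr2:133015025-133038178 within 0.0232 Mb, with 57.4, 58.9 and 31.7, and one of 6 at chr16:33959331-33966511, with 87.8, 83.3 and 62.4. The 5 longest runs were thus all downward, and in each the DHT value lay close to the vehicle value. Several of these runs lie at or beside centromeres, and their repeat content and read mapping were not examined. The DHT medians cover only regions with a DHT peak, which were 3 in the run of 7. Some shorter downward runs ranked lower under DHT. The medians were 58.4 under vehicle and 39.0 under DHT at chr11:102322886-108464193, and 72.2 and 39.7 at chr1:154974940-154978476.

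No upward run exceeded 4 regions. The upward run with the highest median list percentile in LNCaP-abl was chr15:57025217-57884449, at 92.6 against 26.8 under vehicle and 55.7 under DHT. The run at chr4:128981765-129733899 had 90.5, 30.5 and 45.4. The run at chr8:38239093-38855229 was the lowest under vehicle, at 6.57, with 58.5 under DHT and 85.1 in LNCaP-abl. At chr17:1358760-1466405, in 0.108 Mb, the values were 76.9, 9.21 and 19.7.

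Among regions held by LNCaP-abl alone with no vehicle peak within 10 kb, the 10 highest-scoring had scores from 189 to 266 and ranked from 257 to 604 in the list. The first was chr7:27169494-27170888, 1395 bp wide and 19.4 kb from the nearest vehicle peak. The most isolated was chr8:110656289-110657340, with a score of 189 and the nearest vehicle peak 2986 kb away. Of the 10, 5 had a DHT peak, with scores from 5.18 to 12.5. The best of those was chr17:65821149-65822313, which scored 12.5 under DHT and 209.5 in LNCaP-abl. So 5 of these strong LNCaP-abl sites had no peak in either LNCaP list, and the other 5 had DHT list percentiles from 26.7 to 84.0.

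Vehicle-only regions were named by the same rule. Their list percentiles ran from 88.7 to 94.0, beside 97.1 to 98.8 for the LNCaP-abl-only regions above. The 10 on each side came from 1131 vehicle-only and 13200 LNCaP-abl-only regions, in lists of different length, so no contrast is drawn. Leaving out the mitochondrial genome, the 10 highest vehicle-only regions had scores from 14.8 to 20.7 and widths from 253 to 395 bp. The first was chr22:39941851-39942141, with 20.7 under vehicle and 12.3 under DHT, and a LNCaP-abl peak 10.7 kb away. At chr12:55413597-55413895 the scores were 17.6 and 28.2, with the nearest LNCaP-abl peak 431 kb away, and at chr1:37721012-37721270 they were 16.2 and 28.3. Of the 10, 9 had a DHT peak; chr14:88237489-88237883, with 18.1 under vehicle, did not. Those at chr8:43794569-43794938 and chr11:48804979-48805331 lay in the crowded vehicle windows. Over all 1131 vehicle-only regions the share with a DHT peak was 22.1%.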

How the data were processed

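TRIM24 ChIP-seq peak lists of LNCaP vehicle, LNCaP DHT and LNCaP-abl vehicle were used, 1 library each; 3 inputs were not used. The reads had passed through FastQC 0.10.0, Bowtie 0.12.7 (hg19) and MACS2 2.0, per the submitters' processing notes. For control, read filters and cutoff, these are not given in the sources here. Peak names in each list carry 1 library. Scores in the authors' lists are −log10 values of p or q; the lists do not say which. Depth is unknown.

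Groups came from the labels. Overlapping peaks were joined into regions and a region took its highest score in each list. Tied scores got mean ranks (the vehicle list has 1449 distinct scores). Shares carry exact Clopper-Pearson 95% intervals, for counting error only. With 1 library per side no test was made. Named regions follow a written rule: the 10 largest rank changes each way among regions in the top decile of the list where they stood higher, the 5 with the highest mean percentile, and the 10 highest-scoring regions of either list alone with no peak of the other list within 10 kb, mitochondrial ones apart. Rules and lists were chosen with earlier results of these data known; windows, runs, chromosomes and the 75-point size were singled out after their values were seen. The region code found all planted overlaps and moves in simulated lists. Every planted overlap lay inside a LNCaP-abl peak and every planted move was large and downward. Upward or smaller moves were not tried. Promoter shares, nearest genes and gene lists had been planned and need hg19 annotation; the gene and promoter tables at hand are of GRCh38.p14, so they were left out and no sequence is printed. Alternatives were the overlap rule, list length, threshold, region score, peak joining and the sequences used. Python 3.11.15, numpy 2.4.6, pandas 2.3.3, scipy 1.17.1 and matplotlib 3.10.9 were used.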

Additional observations from a re-analysis of the deposited data

How the results depend on the processing

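No paired analysis was possible because there was a single library per condition, which also kept any library from being left out. Counts of regions moving up and down are given in that order. With a reciprocal overlap of at least 50%, 2559 regions were shared, 12.4% of LNCaP-abl and 26.3% of vehicle regions, with 411 and 423 moves, a Spearman correlation of 0.56 and 60.8% of the top vehicle decile in the top LNCaP-abl decile. With the better-scoring 50% of each list, 3791 were shared (36.8% and 82.7%), with 728 and 725 moves and 60.4% of the top decile, as follows from fewer peaks. A size of 40 points gave 684 and 749 moves. Shares of LNCaP-abl and vehicle regions in common were 34.6% and 77.3% with peaks of 400 bp, 37.5% and 89.1% with peaks less than 1 kb apart counted as shared, 62.1% and 70.6% in lists of equal length, and 32.2% and 84.7% for regions of 1 peak from each list. Without the 45 crowded windows, an alternative chosen after seeing the data, 88.1% of vehicle regions were shared. The correlation was 0.47 in lists of equal length, 0.46 with summed scores, 0.19 with scores per kb of width and 0.42 for regions of 1 peak from each list; with scores per kb, 42.8% of the top decile was in common. Moves of 75 points or more, up and down, numbered 24 and 63 in lists of equal length, 19 and 46 in the better-scoring 50%, 6 and 18 with the reciprocal overlap and 115 and 127 with scores per kb, so the excess of downward ones shrank most on the last scale. The median rank change turned to 1.504 on chromosome 13 with the reciprocal overlap, and to -1.65 on chromosome 21 and -0.014 on chromosome 4 with scores per kb. Of the 10 named downward regions, those still shared (4 with the reciprocal overlap, none in lists of equal length or the better-scoring 50%) stayed at least 44.3 points lower in LNCaP-abl. The 10 upward ones were not shared with the reciprocal overlap or in the better-scoring 50%. For the changes without a stated reason, the cause was not tested. Promoter shares with another window were not run, because they need hg19 annotation. The unknown depth limits any reading of absent or weak peaks.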

Other observations

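LNCaP-abl-only TRIM24 regions were crowded in places. In windows of 100 kb without a vehicle peak, the most LNCaP-abl regions were 9, on chromosome 11 from 0.6 to 0.7 Mb and on chromosome 16 from 31.4 to 31.5 Mb, with highest scores of 60.4 and 52.0 and 0 DHT peaks in either. The window on chromosome 19 from 19.6 to 19.7 Mb had 8, none scoring above 23.5, and 0 DHT peaks. Chromosome 3 from 128.7 to 128.8 Mb had 7, with a highest score of 121 and 1 region with a DHT peak. These windows were picked after their values were seen. LNCaP-abl-only regions were within 10 kb of a shared region in 21.3% of cases (20.6 to 22.0) and vehicle-only regions in 30.1% (27.4 to 32.8).

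The Y chromosome held 12 vehicle and 19 LNCaP-abl regions, of which 7 were shared and 5 moved down, with a median rank change of -47.7 points. The mitochondrial genome held 9 vehicle regions and 0 LNCaP-abl regions.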
